A study of Mus musculus with 8 samples.

Results

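S100 proteins are small calcium-binding proteins with paired EF-hand loops, and 8 of their genes are described here in mouse brown adipose tissue: S100b, S100a1, S100a13, S100a6, S100a10, S100a11, S100a16 and S100a4. They were taken by gene name from a deposited table of 54532 genes, in which 17 protein-coding S100 genes were listed. They were selected on their FPKM levels and on their difference between the groups, both already known, so the same values support nothing by themselves. They are given as a description: no p is printed for a member, and where a member is said to be called, this only tells on which side of the threshold the fit of all genes put it. All 8 passed a filter on low values, 0.5 FPKM (fragments counted per gene, scaled by gene length and by library size) or more in 4 or more libraries, as did 12508 genes in all. Of the 9 other S100 genes, 2 passed it as well.

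The tissue came from 4 wild-type mice (WT, replicates 1, 2, 3 and 5) and 4 mice of the transgenic line CLCF1-ATG (TG, replicates 1, 2, 3 and 5), the latter made to study the cytokine CLCF1 in brown fat. No treatment, age, sex or strain is stated in the sources used here, nor is the promoter that drives the transgene or whether litters were shared, so p-values measure the spread between these samples. The targeted gene, Clcf1, stood at 0.434, 2.02, 3.40 and 2.75 FPKM in WT and at 86.2, 83.0, 78.7 and 89.9 FPKM in TG, which matches the labels in all 8 libraries.

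An S100 protein usually works as a dimer. On binding calcium it exposes a surface that grips a partner, such as an annexin, a myosin or an ion channel, and some members also leave the cell and act on receptors such as AGER (RAGE) and TLR4. S100B is best known from astrocytes and Schwann cells. In brown fat it is also made by adipocytes, where the protein calsyntenin 3 beta, encoded within Clstn3, helps it to be secreted, and it has been described as a factor that promotes sympathetic innervation. Sympathetic nerves release noradrenaline, which drives heat production in brown adipocytes.

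The genes lie at a pair of places. S100b stands alone on chromosome 10, at 76253853-76261159 on the plus strand (mm10). The other 7 lie on chromosome 3, where S100a1 (90511034-90514392, minus strand) and S100a13 (90514435-90524581, plus strand) point away from each other from starts 43 bases apart. S100a16 (90537254-90543151), S100a4 (90603771-90606045) and S100a6 (90612882-90624181) follow on the plus strand, and S100a11 (93520488-93526287) and S100a10 (93555080-93564643) lie further along it, also on the plus strand. Of the 8 genes, S100a13 has 4 exons in its principal transcript and the others have 3.

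Upstream sequence is shown for the gene with the largest difference (S100b), for the abundant gene whose mean was higher in TG (S100a11), and for the 42 bases between the start sites of S100a1 and S100a13 as the table gives them. The windows of 250 bases end 1 base before the RefSeq start (GRCm38.p6) and are written 5′ to 3′ on the plus strand, with matches to a searched motif in capitals.
S100b, chr10:76253586-76253835: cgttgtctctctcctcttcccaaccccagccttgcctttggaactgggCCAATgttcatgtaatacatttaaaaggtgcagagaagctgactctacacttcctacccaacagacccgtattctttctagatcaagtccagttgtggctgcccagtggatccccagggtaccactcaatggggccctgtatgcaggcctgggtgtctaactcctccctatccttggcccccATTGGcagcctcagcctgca
S100a11, chr3:93520246-93520495: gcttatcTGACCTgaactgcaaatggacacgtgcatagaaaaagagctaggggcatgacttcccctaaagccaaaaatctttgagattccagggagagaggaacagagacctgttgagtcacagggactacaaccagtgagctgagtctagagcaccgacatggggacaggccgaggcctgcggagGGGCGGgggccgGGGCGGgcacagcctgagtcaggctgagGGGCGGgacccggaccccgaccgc
S100a1 to S100a13 interval, chr3:90514393-90514434: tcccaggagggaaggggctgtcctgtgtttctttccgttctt

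The search covered 7 motifs on both strands: the GC box (GGGCGG), the CCAAT box, the TATA box (TATAAA), a STAT element (TTCNNNGAA), a nuclear receptor element (AGGTCA), the cAMP response element (TGACGTCA) and an EBF element, TCCC followed after any 2 bases by GGGA. None of the motifs contains another. The S100b window holds CCAAT 2 times, 202 and 20 bases before the start, and none of the other motifs. CCAAT occurs in 33.8% of 32536 RefSeq windows of the same length. In the S100a11 window GGGCGG occurs 3 times, a motif present in 33.0% of windows, and AGGTCA occurs once, a motif present in 14% of windows. The interval between S100a1 and S100a13 holds no match. Neither do the 250-base windows of those 2 genes. Of the other members, S100a6 has CCAAT, S100a16 has AGGTCA and S100a4 has TATAAA 31 bases before its start together with AGGTCA. The TATA box occurs in 12.3% of all windows, the STAT element in 7.04%, the cAMP response element in 1.56% and the EBF element in 0.787%. S100a10 was not matched. CpG dinucleotides number 11 in the S100a11 window, 13 in that of S100a13 and 8 in that of S100a1, against 2 for S100b and a median of 6 over all windows. These matches describe letters in the windows and do not show binding.

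S100b had the largest difference between the groups among the 8 genes. WT tissue held 75.3, 64.9, 72.8 and 51.0 FPKM, and TG tissue held 6.39, 3.15, 3.36 and 1.82 FPKM. Every TG library lay far below every WT library, the nearest being WT replicate 5 and TG replicate 1. The mean was 66.0 ± 10.9 FPKM in WT (SD, n = 4) and 3.68 ± 1.93 FPKM in TG (SD, n = 4), a 17.9-fold lower level. The difference on the log2(FPKM + 1) scale, which understates changes of low genes, was -3.91 (SE 0.26). Behind these values were 867 to 1436 reads in each WT library and 62 to 226 in each TG library. Among all genes ordered by mean FPKM, S100b moved from place 765 in WT to place 6474 in TG.

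**Figure D1:**
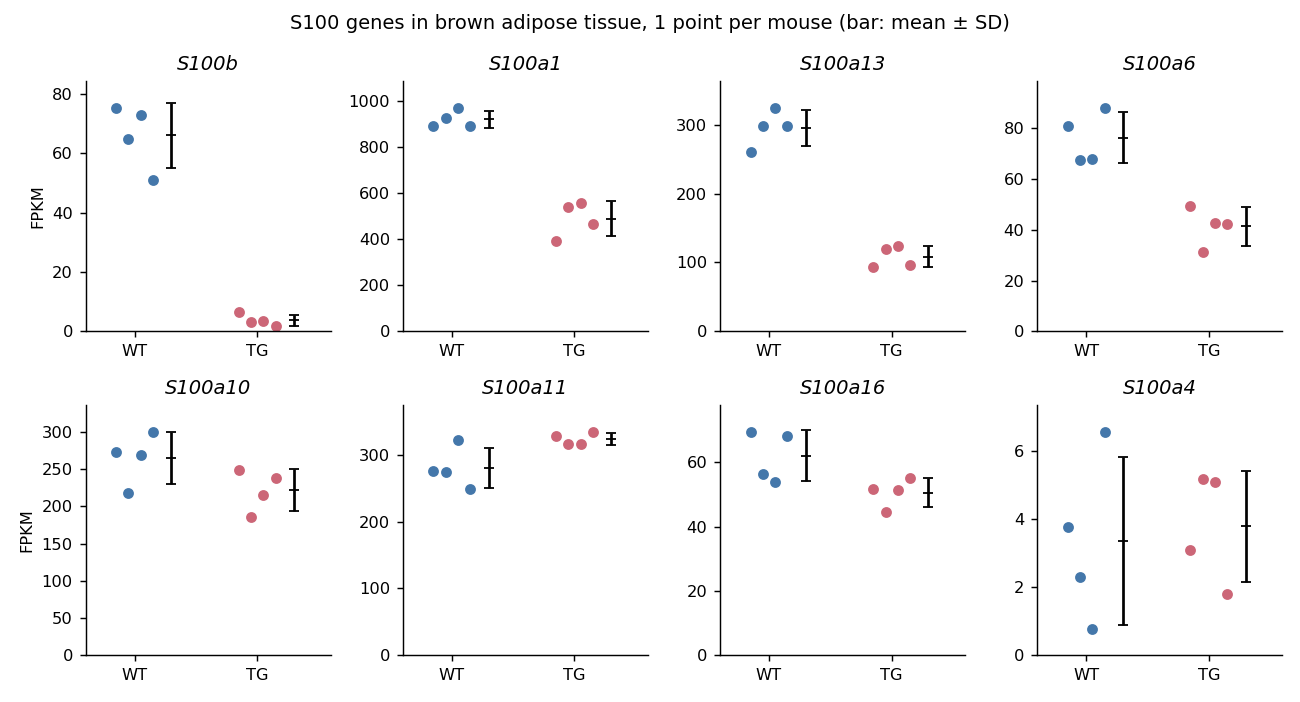
FPKM of the 8 S100 genes, 1 panel per gene with its own axis starting at 0, 1 point per mouse (WT blue, TG red) and a bar for the mean and SD of 4 mice. The groups do not overlap for S100b, S100a1, S100a13 and S100a6, and they overlap for the other 4 genes.

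Several brown adipocyte markers moved with S100b, but not all. Summed FPKM of 10 brown adipocyte markers was 3142 to 4890 in WT and 227 to 404 in TG. Most of the WT sum came from Cidea, Ucp1 and Cox7a1, with means of 2031, 1420 and 648 FPKM. Of the 10 markers 6 fell, where 21.8% of all tested genes did. Zic1 (log2 0.04), Prdm16 (-0.02) and Elovl3 (0.62) did not pass the test. Adrb3, the adipocyte noradrenaline receptor, rose (log2 0.69, limma adjusted p = 0.01), where 22.3% of all tested genes rose. The sum over general adipocyte markers moved the other way, from 8068 to 9914 in WT to 21951 to 33687 in TG. Within the TG group the order of the libraries by S100b, replicates 1, 3, 2 and 5 from high to low, was also their order by the brown adipocyte sum. WT replicate 5 was lowest in its group in both measures. The part of the brown adipocyte change in the S100b difference was not tested. In bulk tissue, fewer cells of a type and less RNA per cell cannot be told apart.

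Schwann cells are the other textbook source of S100b in fat. Their 10 markers summed to 9.11 to 10.6 FPKM in WT and 6.41 to 9.01 FPKM in TG, so the TG range lay just below the WT range. Only 3 markers passed the filter. By limma none of these was called, at an adjusted p or at an unadjusted p under 0.05, and voom called none either. Mbp, a myelin protein gene, was at 4.88 FPKM in WT against 4.92 FPKM in TG. Sox10, the lineage transcription factor of Schwann cells, was too low to be tested, at 0.640, 0.439, 0.493 and 0.258 FPKM in WT and 0.192, 0.108, 0.0287 and 0.0429 FPKM in TG. No Schwann cell marker was at 0 in all libraries. Cartilage cells also make S100B. Their 11 markers summed to 1.13 to 8.25 FPKM in WT and 0.261 to 0.553 FPKM in TG, with Col2a1, Col9a1, Col9a2 and Snorc at 0 throughout. The 1 marker that passed the filter, Sox9, a transcription factor of cartilage and other tissues, did so through the WT libraries, at 0.636, 3.31, 7.71 and 5.24 FPKM in WT and 0.467, 0.285, 0.212 and 0.411 FPKM in TG. The part of these cell types in the S100b difference was not tested.

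The 5 genes most like S100b across the 8 libraries were Slc27a2, Pank1, Cidea, Ucp1 and Acaa2, of which Cidea and Ucp1 are among the brown adipocyte markers. Likeness was measured as the root mean square difference between log2 profiles, each centred on its own WT mean, among 5113 protein-coding genes with a mean of at least 5 FPKM. The closest was Slc27a2, a very-long-chain acyl-CoA synthetase and fatty acid transporter, at 0.160, where the median candidate stood at 2.76. Its level was 38.3 ± 3.97 FPKM in WT against 1.47 ± 0.813 FPKM in TG (SD, n = 4). Pank1, which catalyses the first step of coenzyme A synthesis, followed at 0.293 and Cidea, a lipid droplet protein, at 0.309. Ucp1, the uncoupling protein that makes heat in brown fat, was next at 0.355, and Acaa2, the last enzyme of mitochondrial fatty acid oxidation, was at 0.372. All 5 had lower values in every TG library than in any WT library. The measure itself selects for such a drop.

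S100a1 and S100a13, the divergent pair, were the most abundant members in WT and both were lower in TG. S100A1 is best known from heart and skeletal muscle, where it regulates calcium release and uptake. Its transcript stood at 894, 927, 971 and 891 FPKM in WT and 394, 540, 557 and 466 FPKM in TG. The WT libraries lay close together, the TG libraries were more spread out, and the groups did not overlap. The mean was 921 ± 37.3 FPKM in WT against 489 ± 74.8 FPKM in TG (SD, n = 4), 1.88-fold lower, with a log2 difference of -0.92 (SE 0.139). Its place among all genes was 73 in WT and 71 in TG. Quantile normalisation, which gives all libraries the same distribution of values, took the difference to -0.08, so the call for S100a1 was lost there, leaving 3 members called lower where 20.9% of all tested genes were. Over the other alternatives it was -0.99 to -0.49.

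Skeletal muscle also expresses S100a1, and muscle markers varied widely between libraries. The sum of 13 skeletal muscle markers was 367, 3670, 198 and 13.9 FPKM in WT and 263, 199, 387 and 2043 FPKM in TG, highest in WT replicate 2 and TG replicate 5. S100a1 was within 891 to 971 FPKM over the same 4 WT libraries. Without WT replicate 2 and TG replicate 5 the S100a1 difference was -0.90. None of the 10 muscle markers tested was called, at an adjusted p or an unadjusted p under 0.05 by limma, or by voom. Tnnc2 was listed at 0 in all libraries, also in those where the other fast muscle genes were abundant. The part of muscle in the S100a1 difference was not tested.

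S100A13 carries proteins that lack a signal peptide, among them FGF1, out of cells. Its gene was at 261, 298, 325 and 299 FPKM in WT and at 93.5, 119, 124 and 96.6 FPKM in TG, with a wide gap between the groups. The mean was 296 ± 26.0 FPKM in WT against 108 ± 15.3 FPKM in TG (SD, n = 4), 2.73-fold lower, and the log2 difference was -1.45 (SE 0.13). Unlike S100a1, it kept its call under quantile normalisation. The ratio of S100a1 to S100a13 was 3.13 ± 0.205 in WT and 4.52 ± 0.249 in TG (SD, n = 4), with ranges of 2.98 to 3.42 and 4.21 to 4.82, so the pair was lowered unequally. Fgf1, the cargo gene, had a mean of 3.44 ± 1.15 FPKM in WT against 0.522 ± 0.145 FPKM in TG (log2 -1.50). The WT libraries alone carried Fgf1 past the filter, so no test is given for it. Among 467 divergent pairs of tested protein-coding genes whose starts lie within 1000 bases, 7.49% had both genes called lower, 6.21% both higher and 6.21% called in opposite directions.

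Within 250 kb of the S100a1 start, 9 tested genes other than the members were listed. By limma 3 of these were called lower (Npr1, S100a8 and S100a9) and 6 were not called, with a median log2 difference of 0.06. Over all tested genes 21.8% were called lower and 44.1% in either direction. Chtop, the nearest on the S100a1 side, stood at 0.09. Npr1, the receptor for atrial natriuretic peptide, fell by 1.35 on the log2 scale. Around S100b on chromosome 10, Mcm3ap rose, Prmt2 fell by 0.53 on the log2 scale, and 3 of 6 neighbours, Dip2a among them, were not called. Pcnt, the remaining neighbour, had a mean of only 0.347 FPKM in WT, against 0.938 FPKM in TG. The TG libraries carried Pcnt past the filter, so no test is given for it.

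**Figure D2:**
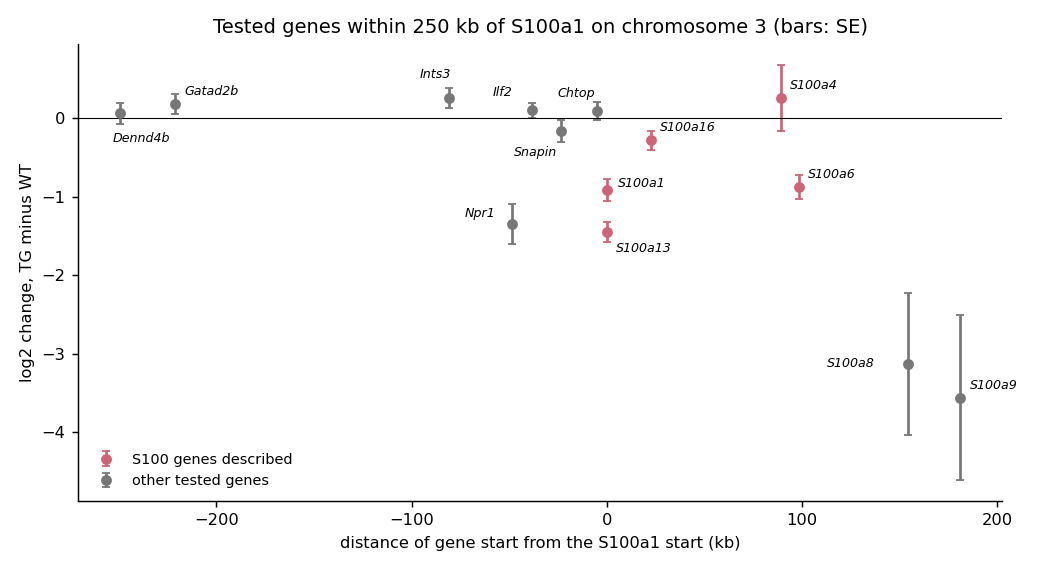
Log2 difference (TG minus WT, log2(FPKM + 1) scale, bars SE) of the tested genes within 250 kb of the S100a1 start, plotted by distance of their starts in kb. S100a1 (-0.92) and S100a13 (-1.45) sit below 0 at distance 0, while Chtop, beside them, is at 0.09.

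S100A6, or calcyclin, binds CACYBP, a protein of ubiquitin-dependent degradation. S100a6 was at 81.0, 67.7, 68.1 and 88.1 FPKM in WT and at 49.5, 31.1, 42.5 and 42.3 FPKM in TG. No TG library reached the lowest WT library. The mean was 76.3 ± 10 FPKM in WT against 41.3 ± 7.60 FPKM in TG (SD, n = 4), 1.84-fold lower, with a log2 difference of -0.88 (SE 0.155). It stayed called under all alternatives, from -0.97 to -0.46. Its groups overlapped, though, after division by all recovered reads and after scaling without abundant genes. That scaling left out the 20 most abundant genes, all mitochondrially encoded genes and the Hba and Hbb globin genes. Cacybp itself was at 43.4 and 35.3 FPKM (adjusted p = 0.212).

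S100A10, also called p11, has lost calcium binding and sits in a tight complex with annexin A2. The gene was measured at 273, 218, 270 and 301 FPKM in WT and at 249, 186, 215 and 239 FPKM in TG, and the groups overlapped. The log2 difference of -0.25 (SE 0.141) was not called under any of the 21 alternatives, and its sign turned with scaling: it was 0.24 with quantile normalisation, 0.12 with scaling without the most abundant genes and 0.17 on division by all recovered reads. Those last 2 scalings moved the median of all tested genes from 0.01 to 0.28 and 0.32. Anxa2 was at 111 ± 27.3 FPKM in WT against 85.4 ± 19.6 FPKM in TG (SD, n = 4, adjusted p = 0.156). Kcnk3, an acid-sensitive potassium channel whose trafficking depends on S100A10, fell from 57.9 ± 4.58 to 9.80 ± 2.36 FPKM (log2 -2.47, SE 0.158, limma adjusted p = 4.69e-06).

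S100A11, which pairs with annexin A1, was the abundant member with a higher mean in TG. Its transcript was at 276, 275, 322 and 249 FPKM in WT and 329, 317, 316 and 335 FPKM in TG, and WT replicate 3 overlapped the TG range. The mean was 280 ± 30.3 FPKM in WT against 324 ± 9.60 FPKM in TG (SD, n = 4), with a log2 difference of 0.21 (SE 0.113) that was not called. It was called higher under 4 scalings, at 0.27 with the upper quartile, 0.80 with quantile normalisation, 0.59 without the most abundant genes and 0.64 on division by all recovered reads. Those scalings called 24.8%, 24%, 42.3% and 44.3% of all tested genes higher, in that order. The value is uncertain because 2 expressed processed pseudogenes are near copies, Gm12854 at 5.27 FPKM in WT and Gm7665 at 10.8 FPKM, and no source used here says how reads were divided among them. Anxa1 was at 40.3 ± 4.09 and 49.1 ± 13.5 FPKM (SD, n = 4, adjusted p = 0.309).

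S100a16, a widely expressed member, was at 69.6, 56.5, 54.0 and 68.1 FPKM in WT and 51.7, 44.4, 51.3 and 55.0 FPKM in TG. TG replicate 5 lay above the lowest WT library. Its log2 difference of -0.28 (SE 0.12) was not called under any alternative and became 0.09 without the most abundant genes and 0.14 on division by all recovered reads. S100a4, a gene of fibroblasts and myeloid cells whose protein binds the myosin encoded by Myh9, was the lowest member in WT, at 3.78, 2.29, 0.773 and 6.58 FPKM, and stood at 3.09, 5.17, 5.10 and 1.79 FPKM in TG. The groups were fully intermixed, on 6 to 44 reads in each WT library and 24 to 68 in each TG library. Its log2 difference was 0.26 (SE 0.421), or -0.11 without WT replicate 3. Of its exon bases, 51.7% are shared with Gm42674 on the same strand, listed at 0 in all libraries, so its level is uncertain too.

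Counted together, 4 of the 8 members were called lower in TG by limma (adjusted p at 0.05), where 21.8% of all tested genes were called lower, and 0 were called higher, where 22.3% of all tested genes were. At an unadjusted p under 0.05 none was higher and 5 were lower, and voom on the recovered reads called 0 higher and 4 lower, where it called 23.6% of tested genes higher and 22% lower. The share of all genes at an unadjusted p under 0.05 was not counted. In either direction 44.1% of tested genes were called at an adjusted p by limma. The 4 called members were also the 4 whose groups did not overlap, all with TG below WT, where 20.5% of tested genes lay wholly below, 22.1% wholly above and 42.6% did either. The median log2 difference over the 8 was -0.58, against 0.01 over all tested genes.

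**Figure D3:**
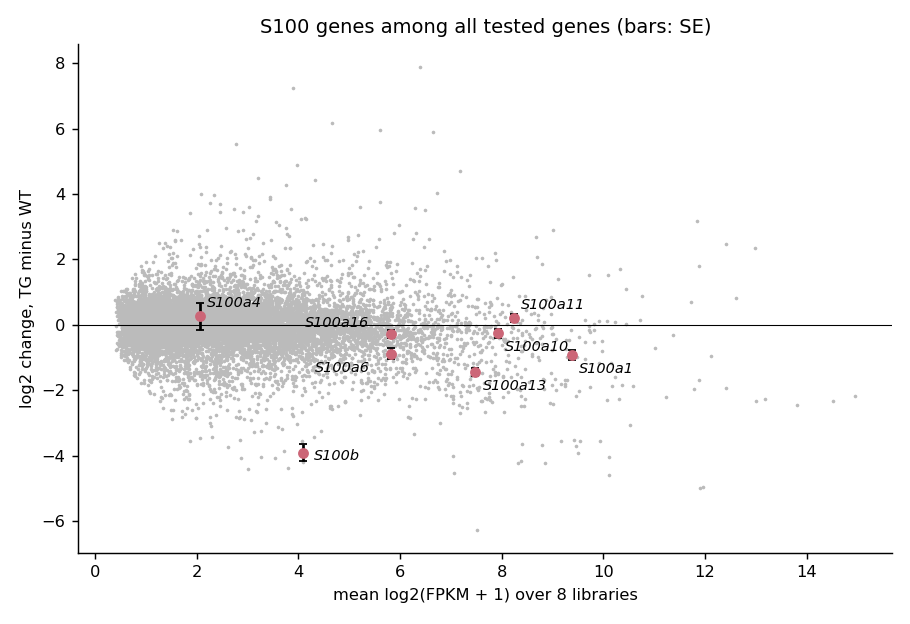
Log2 difference (TG minus WT) against mean log2(FPKM + 1) for all 12508 tested genes (grey), with the 8 S100 members marked. S100b lies near the lower edge of the cloud at -3.91, and S100a11, at 0.21, and S100a4, at 0.26, lie above 0.

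**Figure D4:**
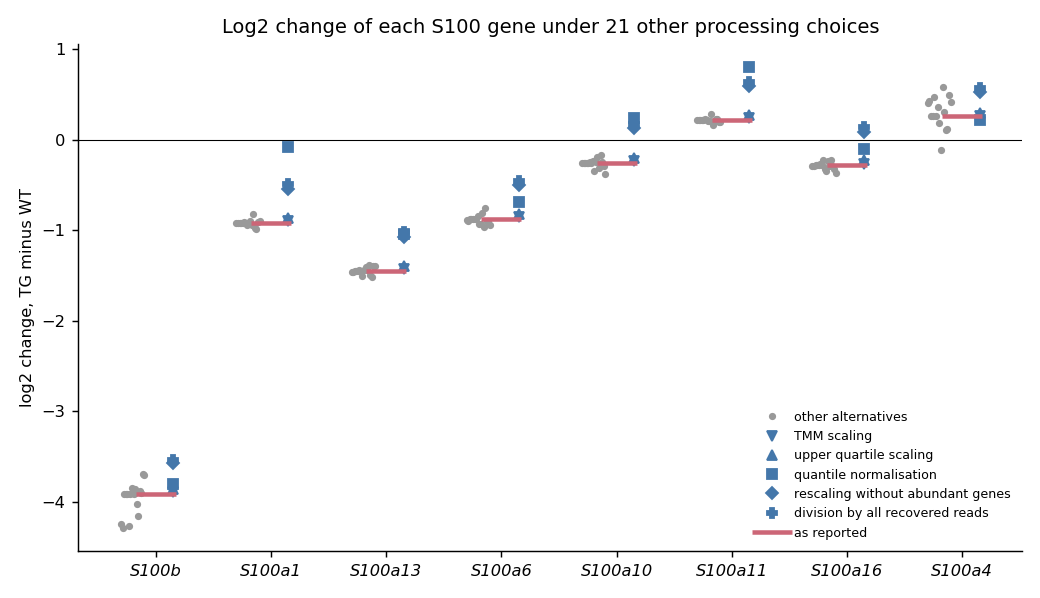
Log2 difference (TG minus WT) of each of the 8 members under the reported fit and each alternative, including every scaling and every left-out library. S100b stays between -4.29 and -3.53, S100a1 comes close to 0 with quantile normalisation, and S100a10 and S100a16 cross 0 with some scalings.

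The S100 transcripts were differently composed in TG. FPKM values are per length, so levels were set side by side between genes. The length used covers all exons of a gene, 1617 bases for S100a16 with 8 transcripts and 511 bases for S100a11 with 1. It can exceed that of the transcript present, so shares and order between genes are approximate. The 8 genes summed to 1970 ± 77.8 FPKM in WT against 1243 ± 56.4 FPKM in TG (SD, n = 4), with ranges of 1909 to 2083 and 1176 to 1314. The size of this gap depended on scaling: the sums were 1700 and 1442 FPKM on division by all recovered reads, and 1591 and 1559 FPKM with overlapping ranges after quantile normalisation. S100a1 was the largest share of that sum in both groups, 46.8 ± 1.30% in WT and 39.2 ± 4.55% in TG. S100a11 went from 14.2 ± 1.11% to 26.1 ± 1.78%. S100a10 went from 13.5 ± 1.70% to 18.0 ± 2.80%, with overlapping ranges of 11.4 to 15.4% in WT and 15 to 21.2% in TG. S100a13 went from 15 ± 1.01% to 8.68 ± 0.927% and S100b from 3.35 ± 0.536% to 0.3 ± 0.17%. S100a6 made up 3.88 ± 0.570% and 3.34 ± 0.702%, with overlapping ranges.

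By mean level the WT order was S100a1, S100a13, S100a11, S100a10, S100a6, S100b, S100a16 and S100a4. Neighbours whose WT ranges overlapped were S100a13 and S100a11, S100a11 and S100a10, S100a6 and S100b, and S100b and S100a16. The TG order was S100a1, S100a11, S100a10, S100a13, S100a16, S100a6, S100a4 and S100b, with overlap between S100a16 and S100a6 and between S100a4 and S100b. S100b thus ended last in TG, behind S100a4.

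**Figure D5:**
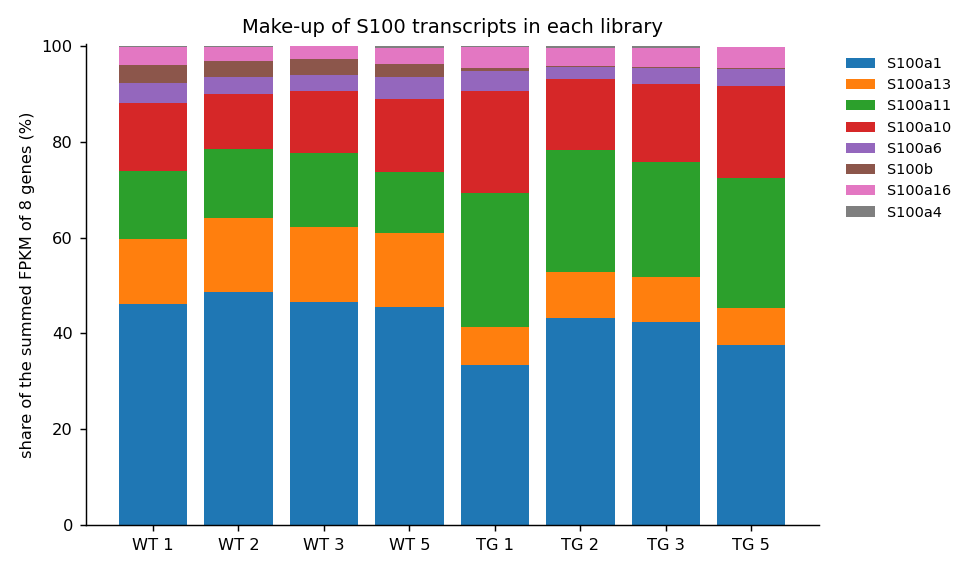
Share of each S100 gene in the summed FPKM of the 8 genes, in percent, 1 stacked bar per library. In all 4 TG libraries the S100a11 share (24.0 to 28.0%) is larger than in any WT library (12.8 to 15.5%), and the S100b share is hardly visible.

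Receptors and binding partners of S100 proteins moved in both directions. Over all tested genes 22.3% rose and 21.8% fell. Of 35 listed partners and receptors, 26 passed the filter, and 8 of those rose, 10 fell and 8 did not pass the test, with a median log2 difference of -0.23. Scaling changed this split: on division by all recovered reads, which called 44.3% of tested genes higher and 11.5% lower, 11 rose and 3 fell, and the median became 0.15. Ager, the receptor for several S100 proteins, was below the filter, at 0.108 FPKM in WT against 0.0557 FPKM in TG. Tlr4, the receptor for the S100A8 and S100A9 complex, rose from 2.68 ± 0.432 to 5.60 ± 0.519 FPKM (log2 0.85, limma adjusted p = 0.000353). Alcam, described as a receptor for S100B, rose from 0.620 to 1.77 FPKM (log2 0.79, limma adjusted p = 0.000874). Dlc1, a GTPase-activating protein that S100A10 binds, rose by 0.82 on the log2 scale (limma adjusted p = 0.000345). Myh9, the partner of S100A4, fell from 13.2 to 6.44 FPKM (limma adjusted p = 0.00408).

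Annexins, the calcium-dependent membrane binders that several S100 proteins grip, gave 3 that rose, 1 that fell and 6 without a call among 10 tested, where 22.3% of all tested genes rose and 21.8% fell. Their median log2 difference was 0.00. On division by all recovered reads 6 rose, where 44.3% of all tested genes did. Anxa8 rose from 2.15 ± 0.683 to 59.1 ± 9.66 FPKM (SD, n = 4), with 2.89, 2.57, 1.48 and 1.67 FPKM in WT and 50.7, 73.0, 56.6 and 55.9 FPKM in TG (log2 4.26, SE 0.172, limma adjusted p = 5.97e-07). Anxa6 rose from 80.9 ± 19.1 to 220.0 ± 17.3 FPKM (log2 1.46, limma adjusted p = 0.000166). Anxa3 fell from 14.5 ± 4.51 to 4.69 ± 0.926 FPKM (log2 -1.42, limma adjusted p = 0.000508). Anxa11, whose protein binds S100A6, was called at 0.51 (adjusted p = 0.0348), a call lost in 6 of 20 alternatives.

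Genes of sympathetic innervation, the process S100B is described as promoting, were mostly too low to test. Of 28 listed, 10 passed the filter, of which 3 fell and 7 had no call, and the median log2 difference was -0.41. By limma none rose. Over all tested genes limma called 21.8% lower and 22.3% higher. At an unadjusted p under 0.05 none was higher and 5 were lower, a count without a share over all genes beside it. Voom called 0 higher and 3 lower, where it called 23.6% of tested genes higher and 22% lower. Tubb3, a neuronal tubulin, was at 0.51 FPKM in WT against 0.906 FPKM in TG (limma adjusted p = 0.101) and was called higher without the most abundant genes (adjusted p = 0.0289), on division by all recovered reads (0.0169) and without WT replicate 5 (0.0278), within a range of 0.0169 to 0.224 over 20 alternatives. Tubb3 passed the filter through the TG libraries, with WT at 0.273, 0.557, 0.322 and 0.888 FPKM. Th and Dbh, transcripts of the neurons' own cell bodies, were listed at 0 in all libraries. Clstn3 stood at 52.2, 38.9, 32.5 and 32.6 FPKM in WT and 13.5, 15.1, 13.1 and 10.9 FPKM in TG, without overlap (log2 -1.48, SE 0.164, limma adjusted p = 9.60e-05). The table holds 1 value per gene, so the calsyntenin 3 beta transcript was not separated from it. Nrtn, the neurotrophic factor neurturin, fell from 38.1 ± 6.35 to 3.38 ± 1.23 FPKM (log2 -3.19, SE 0.206, limma adjusted p = 4.86e-06). Sema6a, an axon guidance protein, was called at -0.67 (adjusted p = 0.0334) and called in 10 of 20 alternatives.

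The libraries held 13734231 to 15751302 recovered reads in WT and 18494022 to 20183840 in TG. Mitochondrially encoded genes took 24.1 to 37.5% of reads in WT and 6.09 to 7.34% in TG. Endothelial markers (7 of 7 tested) and smooth muscle and pericyte markers (5 of 5 tested) fell, where 21.8% of all tested genes did. With scaling without abundant genes 6 and 4 of these were called lower, where 12.4% of all tested genes were. Macrophage markers summed to 229 to 378 FPKM in WT and 385 to 465 FPKM in TG. The part of cell composition in the S100 differences was not tested.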

How the data were processed

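Total RNA of brown adipose tissue was sequenced from 8 libraries, 4 WT and 4 TG. Per the submitters' processing notes, reads were converted with bcl2fastq, aligned to mm10 with HISAT2 2.0.5 and counted with featureCounts 1.5.0-p3. The deposited values are FPKM per gene, made by the authors. Whole reads were recovered from the FPKM steps and gene lengths (largest distance from a whole number 1.61e-07). The ratio of recovered reads to the FPKM divisor ran from 1.02 to 1.22 over the WT libraries and from 0.822 to 0.883 over the TG libraries, so read total and divisor differ. The FPKM values were used as deposited.

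The main test was limma 3.58.1 (R 4.3.3) on log2(FPKM + 1) with an intensity trend, over genes reaching 0.5 FPKM in 4 or more libraries, two-sided, with Benjamini-Hochberg adjustment over all 12508 genes. All 8 libraries entered without covariates. A call means an adjusted p under 0.05. The members and lists were chosen with earlier results of these data known. Named genes are the members, other S100 genes passing the filter, up to 6 genes with the lowest p per list plus Ager, Anxa1, Anxa2, Clstn3, Fgf1 and Th, the markers, the 5 genes most like S100b and Clcf1. Beyond this rule, Cacybp, Myh9, Adrb3 and the neighbours of S100a1 and S100b were chosen after their values were seen. A few genes that the rule names are not reported here. The test was checked on simulated data of 11741 genes, where it recovered 92.7% of genes lowered to 0.25 of their level and 47.8% of those lowered to 0.5, with 7 false calls. Alternatives covered pseudocounts, filters, scalings, voom on recovered reads, a replicate block and each library left out. Gene models were GENCODE M21, in which 54409 of the 54532 identifiers were found, 98.3% at the same coordinates. Near copies were searched with blastn 2.17.0. Promoter windows came from RefSeq (GRCm38.p6), in which 7 of the 8 members were matched.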

Additional observations from a re-analysis of the deposited data

How the results depend on the processing

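S100b, S100a13 and S100a6 kept their direction and their call under all 21 alternatives, and S100a1 under all but quantile normalisation, which left 3 members called lower. The number of members called higher went from 0 to 1, the gene being S100a11, with upper quartile scaling, quantile normalisation, with division by all recovered reads and with scaling that leaves abundant genes out. Over all genes, 5513 were called, 2788 higher and 2725 lower. A filter of 5 FPKM, which tests fewer genes, gave 3148 (1445 higher, 1703 lower). Scaling without abundant genes gave 5287 higher and 1546 lower, and division by all recovered reads gave 5536 higher and 1442 lower. These 2 scalings moved the median log2 difference of all tested genes from 0.01 to 0.28 and 0.32. What lies behind the group difference in these scaling factors was not tested. Without WT replicate 2 and TG replicate 5, the libraries with the most muscle transcripts, 1827 genes were called higher and 4 members stayed lower. Leaving out 1 library at a time gave 4407 to 5386 genes called, 2119 to 2724 higher and 2288 to 2662 lower. Each time 4 members were called lower and 0 higher. Groups without overlap, easier to reach with fewer libraries, were seen for 4 to 6 members, and no share over all genes was counted there. S100a11 lay wholly above WT without WT replicate 3. The same held with upper quartile scaling, when abundant genes were left out of the scaling, and when all recovered reads were the divisor. S100a10 lay wholly below WT without WT replicate 2, and S100a16 without WT replicate 3 or without TG replicate 5. The summed FPKM of the members was rescaled as an alternative chosen after seeing the data. Of 825 values over 40 named genes and the alternatives, 782 stayed on their side of the threshold, 15 gained a call, 28 lost one and 0 reversed a called direction.

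WT and TG share replicate numbers, but nothing states that a number marks a shared litter or day. Deviations of same-numbered libraries correlated at -0.19, -0.17, 0.04 and -0.24, and WT replicate 2 correlated best with TG replicate 5 (0.39), so the numbers were not taken as pairs. With the replicate number as a block, 4847 genes were called, with 4 members lower and 0 higher.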

Other observations

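The other S100 genes that passed the filter were S100a8 and S100a9, which encode the calprotectin subunits of neutrophils. S100a8 stood at 4.65, 54.8, 125 and 40.7 FPKM in WT and 10.5, 1.29, 0.757 and 5.09 FPKM in TG. Its groups overlapped because WT replicate 1 lay below TG replicates 1 and 5. The log2 difference was -3.13 (SE 0.909, limma adjusted p = 0.0194), with a call lost in 5 of 21 alternatives. S100a9 had the same layout, with 6.34, 84.3, 242 and 73.8 FPKM in WT and 14.1, 0.543, 1.68 and 8.44 FPKM in TG (log2 -3.56, SE 1.05, limma adjusted p = 0.0204). That call was lost in 6 of 21 alternatives, among them without WT replicate 3 (adjusted p = 0.0511). The summed level of 10 neutrophil markers was 3.16, 12.1, 31.2 and 16 FPKM in WT and 2.28, 2.44, 2.01 and 2.09 FPKM in TG, and WT replicate 3 was highest in all 3 measures. Of those markers, 2 passed the filter, Csf3r (log2 -1.96) and Retnlg (log2 -2.12). Both did so through the WT libraries, so no test is given. The part of neutrophil number in these values was not tested. S100g, S100a14, S100a3 and S100a7a were below the filter, and S100a2, S100a5 and S100z had 0 reads in all 8 libraries, which allows up to 3 reads over the libraries (95% confidence, counting error only).

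Among other EF-hand proteins, 35 of 45 were tested, of which 10 rose, 6 fell and 19 did not pass the test, with a median of 0.05, where 22.3% of all tested genes rose and 21.8% fell. On division by all recovered reads 19 rose and 3 fell, where 44.3% and 11.5% of all tested genes did. Calml3, a calmodulin-like protein, was at 0, 0.0523, 0 and 0.0615 FPKM in WT and 2.13, 4.05, 3.14 and 2.58 FPKM in TG. It passed the filter only through the TG libraries, with 0 to 1 reads in each WT library, so no test is given. Chp1, a partner of sodium-proton exchangers, rose from 71.5 ± 12 to 160.0 ± 14 FPKM (log2 1.16, limma adjusted p = 0.000145). Sparc, a secreted matrix protein, rose from 259 ± 41.0 to 479 ± 58.2 FPKM (log2 0.89, limma adjusted p = 0.00111). Tesc, or tescalcin, was at 2.93, 2.38, 2.60 and 3.79 FPKM in WT and 0.158, 0.415, 0.550 and 0.0823 FPKM in TG. It passed the filter through the WT libraries, so no test is given.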
